A study of Homo sapiens with 10 samples.

Results

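The genes described here supply, remove or convert steroids and the sulfate group that inactivates them. They are PAPSS2, STS, SULT2B1, HSD17B1, HSD17B2, HSD17B4, CYP1A1, CYP1B1 and CYP19A1, named from a list of 9 genes and read through every probe set that the probe annotation gives exactly 1 of these symbols. All 9 genes were measured, by 20 of the 16376 probe sets of the table, with no filter on low values. The list was set down together with the statement that PAPSS2 falls with R5020 in both PR-A lines, so that fall is described and not tested.

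T47D is a human breast cancer line of luminal type, and RNA of 5 groups of T47D-derived cells was hybridised to Affymetrix U133 Plus 2 arrays, 10 in all and 2 per group. The groups were WT PR-A cells given R5020, WT PR-A cells given vehicle, PR-A K388R cells given R5020, PR-A K388R cells given vehicle, and T47D-Y cells given vehicle. R5020 is a synthetic progestin, given at 10 nM for 24 h, and the vehicle was ethanol; T47D-Y cells given R5020 are not analysed here. T47D-Y is a subline without progesterone receptor (PR), and both other lines are stable transfectants of it, 1 carrying wild-type PR-A, the shorter receptor isoform, and 1 carrying PR-A with the K388R exchange at its SUMO attachment site. Each transfected line stands for 1 receptor form, so a difference between lines is also a difference between independently made transfectants, and the 2 cannot be told apart. The sample labels and the study's methods disagree on the medium (DMEM in the labels, MEM in the methods), the serum (stripped with charcoal in the labels only) and the kit used for RNA (PicoPure in the labels, RNAeasy in the methods). The replicates carry the numbers 1 and 2 with no statement that they were separate cultures, so p-values measure the spread between these arrays, which may be technical.

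Array medians were 4.59 to 4.69 on the log2 scale, lower quartiles were 3.28 to 3.39, and arrays of the same group correlated at 0.996 to 0.997 over all probe sets, against 0.977 to 0.993 between groups. Of 9 luminal epithelial markers 7 were measured, and their mean was 9.91 to 10.95 on single arrays. KRT18 was at 13.45 to 14.29 and EPCAM at 11.09 to 11.77, but TFF1 was only at 4.17 to 5.88. The leukocyte list (3 of 7 measured) averaged 3.98 to 4.20 with PTPRC at 2.58 to 2.73, and the endothelial list (4 of 4) averaged 3.90 to 4.22. Neither list was uniformly dim. The leukocyte marker CD3E and the endothelial marker PECAM1 lay above the array medians on every array, reaching 5.77 and 6.14. The fibroblast list (6 of 7) averaged 4.58 to 5.11, with LUM at 2.34 to 2.62 but COL1A1 at 6.11 to 9.59. The luminal mean itself differed by group, from 9.95 in WT PR-A cells with R5020, 10.47 in WT PR-A cells with vehicle, 10.44 in PR-A K388R cells with R5020 and 10.67 in PR-A K388R cells with vehicle to 10.93 in T47D-Y cells; its part in the results was not tested.

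Sulfation makes a steroid water-soluble and unable to bind its receptor. PAPSS2 makes PAPS, the activated sulfate that every sulfotransferase uses, SULT2B1 transfers that sulfate to hydroxysteroids, and STS, steroid sulfatase, removes it again and so frees estrogen precursors from circulating sulfates. In breast tissue CYP19A1 (aromatase) makes estrogens from androgens, HSD17B1 reduces estrone to the stronger estradiol, HSD17B2 runs that step backwards, and CYP1A1 and CYP1B1 hydroxylate estradiol to catechol estrogens.

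Promoter windows of STS and CYP1A1 are shown as examples, since progesterone receptor and the aryl hydrocarbon receptor both bind short DNA motifs. The windows are the 250 bases before an annotated RefSeq start (GRCh38.p14), written 5′ to 3′ on the gene's strand; windows were read for 5 of the 9 genes (STS with 5 starts, CYP19A1 with 7, SULT2B1, HSD17B4 and CYP1A1) and not for PAPSS2, HSD17B1, HSD17B2 and CYP1B1. The first 2 STS windows are chrX:7147040-7147289 and chrX:7147462-7147711 (both plus strand), and the CYP1A1 window is chr15:74725529-74725778 (minus strand). Capitals mark the progesterone receptor half-site TGTTCT or AGAACA in the STS windows and the core of the xenobiotic response element, GCGTG or CACGC, in the CYP1A1 window, both searched on both strands.
STS, first start: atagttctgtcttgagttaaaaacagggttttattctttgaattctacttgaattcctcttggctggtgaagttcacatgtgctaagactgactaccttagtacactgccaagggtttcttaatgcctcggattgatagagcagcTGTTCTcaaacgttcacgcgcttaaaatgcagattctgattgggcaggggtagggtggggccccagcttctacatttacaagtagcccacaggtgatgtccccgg
STS, second start: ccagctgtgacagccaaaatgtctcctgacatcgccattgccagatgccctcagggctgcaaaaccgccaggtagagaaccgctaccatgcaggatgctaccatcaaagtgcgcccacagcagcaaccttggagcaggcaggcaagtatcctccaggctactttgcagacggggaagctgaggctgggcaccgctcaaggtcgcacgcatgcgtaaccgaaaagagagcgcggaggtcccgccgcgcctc
CYP1A1: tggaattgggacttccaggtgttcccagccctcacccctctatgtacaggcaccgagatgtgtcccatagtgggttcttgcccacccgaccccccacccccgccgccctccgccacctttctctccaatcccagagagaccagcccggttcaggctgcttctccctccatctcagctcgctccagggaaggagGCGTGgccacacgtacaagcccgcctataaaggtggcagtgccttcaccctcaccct
The first STS window held 1 half-site, beginning 105 bases before the start, and the second held 0. Of the other 3 STS windows, the one at chrX:7251994-7252243 held 1 half-site, at its end farthest from the start, and the other 2 held 0. Of all 35116 promoter windows of the same length, 12.4% held the half-site at least once and 32.2% held the xenobiotic element core, which the CYP1A1 window held 1 time, 57 bases before the start. The core was not particular to CYP1A1. Both STS windows shown held it 1 time, unmarked there, 91 and 47 bases before their starts, and the SULT2B1 window held it 2 times. Of the CYP19A1 windows 1 held a half-site, 211 bases before its start. A match of these letters is a description of the window and not a binding site.

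PAPSS2 lies on chromosome 10 (87659878 to 87747705, GRCh38.p14) and was read by 3 probe sets. With the main one, 203060_s_at, its log2 signal was 8.14 and 8.32 in WT PR-A cells with R5020, against 10.52 and 10.33 in WT PR-A cells with vehicle. In PR-A K388R cells it was 8.46 and 8.85 with R5020, against 10.26 and 10.20 with vehicle. T47D-Y cells, which carry no PR, had 10.70 and 10.37. All 4 R5020 arrays lay below all 6 vehicle arrays, which ran from 10.20 to 10.70.

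The R5020 fall of PAPSS2 was -2.19 on the log2 scale in WT PR-A cells (4.57-fold), and PR-A K388R cells had -1.57 (2.98-fold). The other 2 probe sets ran the same way, 203058_s_at with log2 changes of -2.11 (WT PR-A) and -1.46 (PR-A K388R), and 203059_s_at with -1.67 (WT PR-A) and -0.74 (PR-A K388R). These falls are what the list was set down with and carry no test. The difference between the lines' responses was not part of it. That difference, PR-A K388R minus WT PR-A, was 0.62 (95% interval 0.09 to 1.15, adjusted p = 0.314 by limma over all probe sets), 0.66 (0.28 to 1.04, adjusted p = 0.112) and 0.94 (0.47 to 1.41, adjusted p = 0.0674) for 203060_s_at, 203058_s_at and 203059_s_at, so none of the 3 passed the threshold although each interval lay above 0. The intervals are for a single probe set and carry no correction for the number of probe sets. Without hormone no PAPSS2 probe set was called against T47D-Y. By 203060_s_at the log2 differences from T47D-Y were -0.11 in WT PR-A cells (95% interval -0.49 to 0.26, adjusted p = 0.809) and -0.30 in PR-A K388R cells (-0.68 to 0.07, adjusted p = 0.35). By 203058_s_at and 203059_s_at both were -0.09 in WT PR-A cells. In PR-A K388R cells these 2 had -0.30 (-0.58 to -0.03, adjusted p = 0.2) and -0.51 (-0.84 to -0.17, adjusted p = 0.0967), with both intervals below 0. With R5020 the mutant line stood above WT PR-A cells by 0.43 (adjusted p = 0.127), 0.44 (adjusted p = 0.0389) and 0.52 (adjusted p = 0.0447) for the 3 probe sets in the order above, all at folds under 1.5 and so not called.

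**Figure D1:**
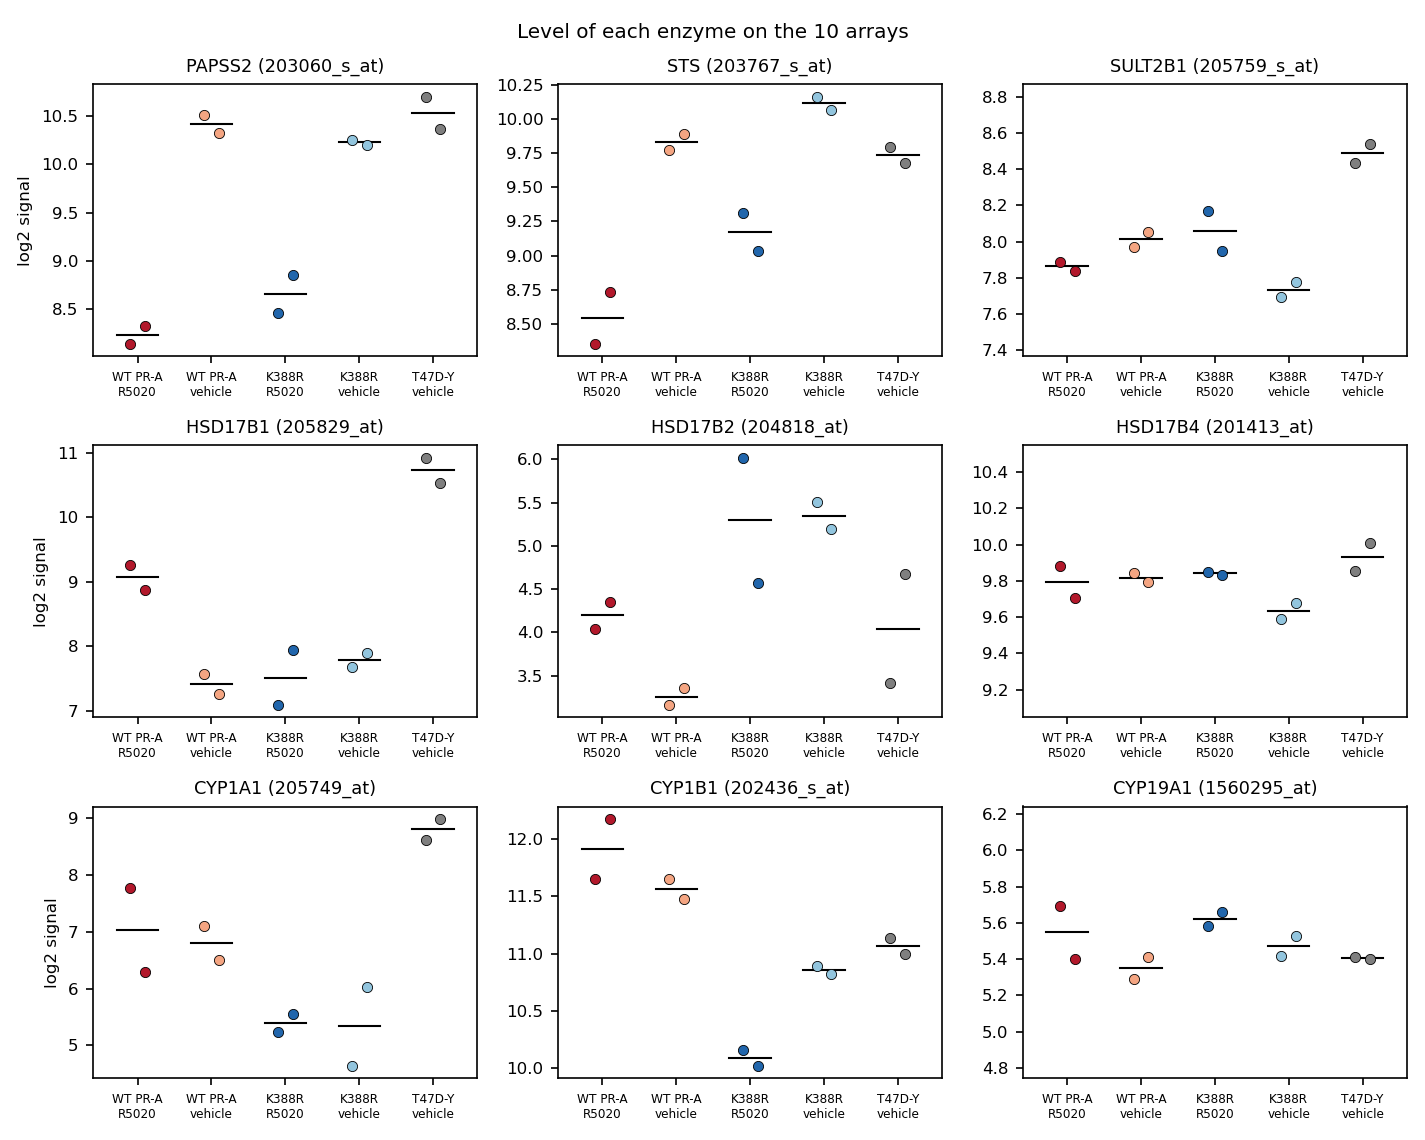
Log2 signal of each of the 9 enzymes by its main probe set on the 10 arrays, with the groups along the horizontal axis, a point for each array and a bar at the mean of the 2 arrays; each panel has its own vertical axis. PAPSS2 and STS are low on all 4 R5020 arrays, HSD17B1 and CYP1A1 are highest in T47D-Y cells, and CYP1B1 is lowest in PR-A K388R cells with R5020.

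STS, on chromosome X (7147290 to 7354641), also fell with R5020, in WT PR-A cells by all 4 of its probe sets and in PR-A K388R cells by 3 of 4. With the main probe set, 203767_s_at, the log2 signal was 8.35 and 8.73 in WT PR-A cells with R5020, against 9.78 and 9.89 with vehicle. In PR-A K388R cells it was 9.32 and 9.04 with R5020, against 10.16 and 10.07 with vehicle, and in T47D-Y cells 9.80 and 9.68. As with PAPSS2, the 4 R5020 arrays lay below all 6 vehicle arrays.

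In WT PR-A cells STS fell 2.46-fold by this probe set (log2 change -1.30, SE 0.15, adjusted p = 0.000617 in limma). By 203769_s_at it fell 2.62-fold (log2 change -1.39, adjusted p = 7.41e-05), by 203768_s_at 2.35-fold (-1.23, adjusted p = 0.000179), and by 203770_s_at 2.07-fold (-1.05, adjusted p = 0.00867). In PR-A K388R cells the main probe set fell 1.92-fold (log2 change -0.94, SE 0.15, adjusted p = 0.0186), 203769_s_at fell 1.84-fold (-0.88, adjusted p = 0.00587) and 203768_s_at fell 1.58-fold (-0.66, adjusted p = 0.0274). The probe set 203770_s_at had a log2 change of -0.71 that did not pass (adjusted p = 0.159). Over the alternative settings the adjusted p of the 3 called probe sets ran up to 0.259, 0.137 and 0.219 in the order above. None of these 3 calls held with unmoderated contrasts, at a fold of at least 2 or without PR-A K388R R5020 replicate 1. The 203767_s_at call was lost without any single PR-A K388R array, and that of 203769_s_at also without PR-A K388R vehicle replicate 2. The 203768_s_at call was lost without any single array except those of WT PR-A with R5020. In WT PR-A cells 203770_s_at lost its call without either vehicle array (highest adjusted p over the settings 0.163).

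The fall of STS was numerically smaller in the mutant line by every probe set, with differences of responses between 0.34 and 0.57, but none was called (adjusted p between 0.162 and 0.745). Between the R5020-treated cells themselves STS was higher in PR-A K388R than in WT PR-A cells by 3 of 4 probe sets, with log2 differences of 0.64 (adjusted p = 0.0225), 1.06 (adjusted p = 0.00028) and 0.71 (adjusted p = 0.0034), against 0.21 for 203770_s_at (adjusted p = 0.544). Of these, 203767_s_at lost its call without WT PR-A R5020 replicate 1 or PR-A K388R R5020 replicate 1 (highest adjusted p over the settings 0.196). Between the vehicle-treated lines no STS probe set was called: 203769_s_at reached an adjusted p of 0.026 against T47D-Y and 0.012 against WT PR-A in PR-A K388R cells, at folds of 1.46 and 1.47 that stayed below 1.5.

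SULT2B1, a sulfotransferase of pregnenolone, dehydroepiandrosterone and cholesterol on chromosome 19 (48552172 to 48599427), did not pass the test in either R5020 response. Its log2 signal was 7.89 and 7.84 in WT PR-A cells with R5020, against 7.97 and 8.06 with vehicle. PR-A K388R cells had 8.17 and 7.95 with R5020, against 7.69 and 7.78 with vehicle, and T47D-Y cells had 8.44 and 8.54, above every other array. In PR-A K388R cells with vehicle it was 1.68-fold lower than in T47D-Y cells (log2 difference -0.75, SE 0.12, adjusted p = 0.00796). Leaving out vehicle replicate 1 of PR-A K388R, or either T47D-Y array, ended that call (highest adjusted p over the settings 0.0919). WT PR-A cells with vehicle had a log2 difference of -0.47 from T47D-Y (adjusted p = 0.0334), which is below the 1.5-fold limit.

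HSD17B1, which makes estradiol from estrone, lies on chromosome 17 (42552923 to 42555214), near its pseudogene HSD17B1P1, and whether the probe set also reads the pseudogene was not tested. Its log2 signal was 9.26 and 8.88 in WT PR-A cells with R5020, against 7.57 and 7.27 with vehicle. PR-A K388R cells had 7.09 and 7.94 with R5020, against 7.68 and 7.90 with vehicle. T47D-Y cells had 10.92 and 10.53, above all 8 arrays of the transfected lines.

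HSD17B1 rose 3.14-fold with R5020 in WT PR-A cells (log2 change 1.65, SE 0.27, adjusted p = 0.0037), whereas in PR-A K388R cells the log2 change was -0.27 (95% interval -0.87 to 0.33, adjusted p = 0.816). The 2 responses differed by -1.92 (SE 0.38, 95% interval -2.76 to -1.08, adjusted p = 0.0431). The WT PR-A call was lost without WT PR-A vehicle replicate 2 and with unmoderated contrasts (adjusted p 0.00054 to 0.143 over the settings). The difference of responses lost its call without any single array other than PR-A K388R R5020 replicate 2 (adjusted p 0.00863 to 0.356). The 2 PR-A K388R R5020 arrays lay 0.85 apart, on either side of that line's vehicle arrays. Against T47D-Y, HSD17B1 was 9.92-fold lower in WT PR-A cells with vehicle (log2 difference -3.31, adjusted p = 7e-05), a call kept under every setting tried. It was 7.67-fold lower in PR-A K388R cells with vehicle (-2.94, adjusted p = 0.000355). In order of mean level the groups ran from T47D-Y over WT PR-A with R5020 to the other 3 groups, whose 6 arrays lay between 7.09 and 7.94.

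HSD17B2, which oxidises estradiol to estrone, lies on chromosome 16 (82035253 to 82098534). Its log2 signal was 4.04 and 4.36 in WT PR-A cells with R5020, against 3.16 and 3.35 with vehicle. PR-A K388R cells had 6.02 and 4.57 with R5020, against 5.51 and 5.19 with vehicle, and T47D-Y cells had 3.41 and 4.67. The replicates lay up to 1.45 apart, and WT PR-A cells with vehicle sat near those arrays' lower quartiles of 3.30 and 3.31, so the size of any fold there is uncertain. PR-A K388R cells with vehicle were higher than WT PR-A cells with vehicle (log2 difference 2.09, SE 0.46, adjusted p = 0.0174), a call lost without any of the 4 arrays compared (highest adjusted p over the settings 0.22). Neither R5020 response passed (log2 changes 0.94, adjusted p = 0.327 in WT PR-A, and -0.06, adjusted p = 0.985 in PR-A K388R).

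HSD17B4, a peroxisomal enzyme that oxidises fatty acids and also estradiol, was not called in any comparison. By 201413_at all 10 arrays lay between 9.59 and 10.01, and by 1563696_at, a dim probe set, between 2.38 and 3.10. CYP19A1, the aromatase gene on chromosome 15 (51208057 to 51338596), was read by 3 probe sets, 1560295_at at 5.29 to 5.70, 203475_at at 3.36 to 3.79 and 1554296_at at 2.37 to 2.66 over the 10 arrays. No probe set of either gene was called by limma in any of the 7 comparisons, and 1 of these 35 values had an unadjusted p under 0.05. For HSD17B4 by 201413_at the R5020 log2 change was -0.02 (95% interval -0.28 to 0.24) in WT PR-A and 0.21 (-0.05 to 0.47) in PR-A K388R cells. For CYP19A1 by 1560295_at it was 0.20 (-0.09 to 0.49) in WT PR-A and 0.15 (-0.14 to 0.44) in PR-A K388R cells. The CYP19A1 probe sets 203475_at and 1554296_at lay near or below the arrays' lower quartiles of 3.28 to 3.39, where a fall could not be read.

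CYP1A1, on chromosome 15 (74719542 to 74725528), was called only in the vehicle-treated PR-A lines against T47D-Y, and not with R5020. Its log2 signal was 7.77 and 6.30 in WT PR-A cells with R5020, against 7.11 and 6.49 with vehicle. PR-A K388R cells had 5.23 and 5.55 with R5020, against 4.64 and 6.04 with vehicle, and T47D-Y cells had 8.61 and 8.98. The arrays within a group lay up to 1.47 apart, yet both T47D-Y arrays stood above the other 8. Vehicle-treated cells were 11.0-fold lower than T47D-Y in the PR-A K388R line (log2 difference -3.46, SE 0.51, adjusted p = 0.00545) and 3.99-fold lower in the WT PR-A line (SE 0.51 on the log2 scale, adjusted p = 0.0341). The WT PR-A call was lost without either of its own vehicle arrays, either T47D-Y array or either PR-A K388R R5020 array (highest adjusted p over the settings 0.297). The PR-A K388R call was lost without T47D-Y replicate 2 (highest 0.174). The R5020 log2 change was 0.23 in WT PR-A cells (95% interval -0.90 to 1.36) and 0.05 in PR-A K388R cells (-1.08 to 1.18), intervals wide enough to hold a change of 1.5-fold either way. PR-A K388R against WT PR-A did not pass in limma with vehicle (log2 difference -1.46, adjusted p = 0.106) or with R5020 (-1.64, adjusted p = 0.0591).

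CYP1B1, on chromosome 2 (38067509 to 38076151), was read by 4 probe sets. By 202436_s_at its log2 signal was 11.65 and 12.18 in WT PR-A cells with R5020, against 11.65 and 11.47 with vehicle. PR-A K388R cells had 10.16 and 10.02 with R5020, against 10.89 and 10.82 with vehicle, and T47D-Y cells had 11.14 and 11.00. The PR-A K388R R5020 arrays were the lowest of the 10, and WT PR-A arrays the highest.

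In R5020-treated cells CYP1B1 was lower in PR-A K388R than in WT PR-A by all 4 probe sets, by 3.55-fold with 202436_s_at (log2 difference -1.83, SE 0.17, adjusted p = 0.00013), 3.40-fold with 202437_s_at (-1.77, adjusted p = 0.00019), 3.40-fold with 202435_s_at (-1.77, adjusted p = 9.12e-05) and 2.25-fold with 202434_s_at (-1.17, adjusted p = 0.000476). These 4 calls were kept under every setting tried. Between the vehicle-treated lines it was lower in PR-A K388R than in WT PR-A by 3 of 4 probe sets, with log2 differences of -0.71, -0.63 and -0.73 (adjusted p = 0.0254, 0.0274 and 0.00763), against -0.49 for 202437_s_at (adjusted p = 0.116). The first 2 of these calls were lost without any of the 4 arrays compared and the third without WT PR-A vehicle replicate 1 or PR-A K388R vehicle replicate 2 (highest adjusted p over the settings 0.204, 0.184 and 0.0957). The log2 changes with R5020 were 0.08 to 0.43 in WT PR-A cells, none called, and -0.36 to -0.84 in PR-A K388R cells, of which 1 probe set, 202435_s_at, was called (log2 change -0.76, adjusted p = 0.0464). That call was lost with median centring and without any single array except those of WT PR-A with R5020 (highest adjusted p over the settings 0.341). The difference of the responses was called for 202437_s_at (-1.27, SE 0.25, adjusted p = 0.0431) and 202435_s_at (-1.13, SE 0.22, adjusted p = 0.0395), missed for 202436_s_at (-1.12, adjusted p = 0.056), and was -0.44 for 202434_s_at (adjusted p = 0.403). The 202437_s_at call held without WT PR-A R5020 replicate 1 or PR-A K388R vehicle replicate 2 and was lost without any other array. The 202435_s_at call held only without the first of these (highest adjusted p over the settings 0.307 and 0.28). Against T47D-Y only 202434_s_at was called, higher in WT PR-A cells with vehicle (log2 difference 0.61, adjusted p = 0.0193; lost without WT PR-A vehicle replicate 1 or T47D-Y replicate 1, highest adjusted p over the settings 0.197).

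**Figure D2:**
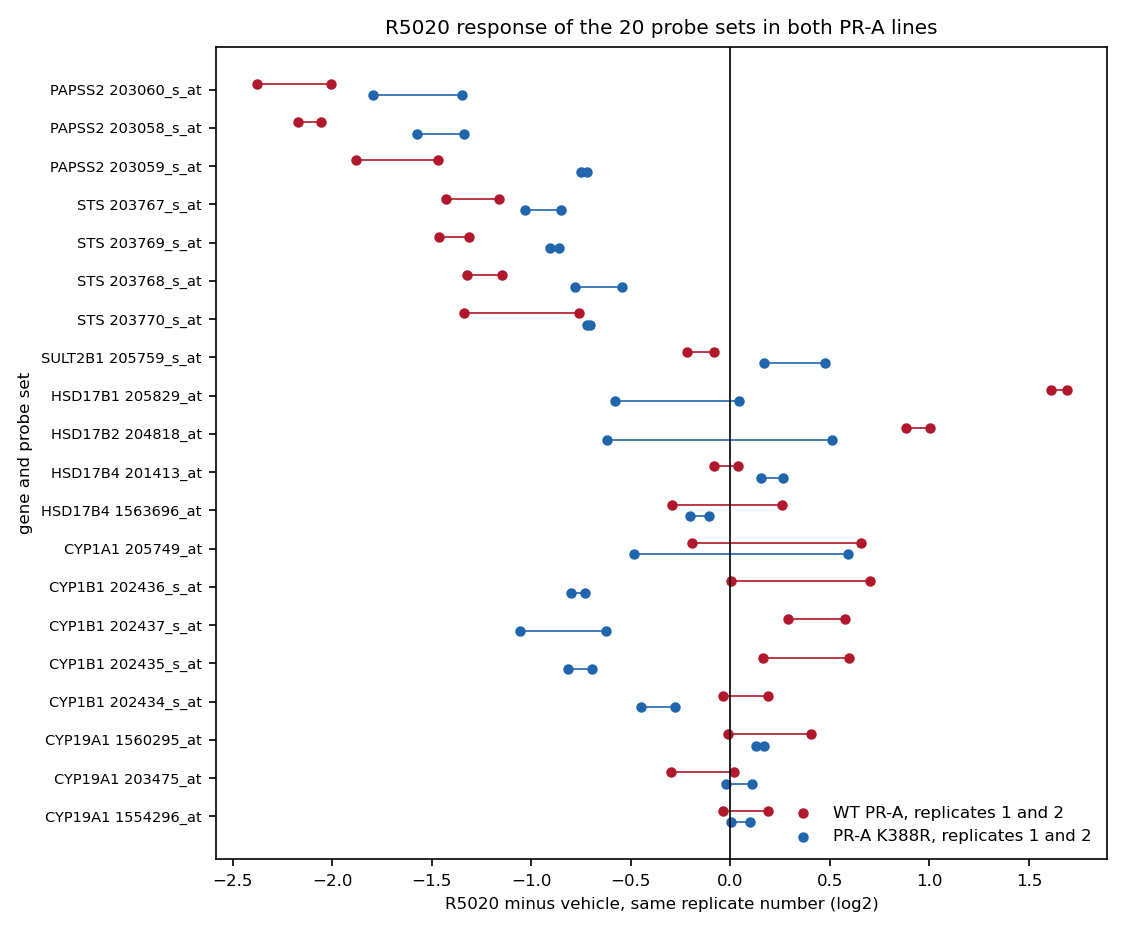
R5020 minus vehicle on the log2 scale for each of the 20 probe sets, with WT PR-A and PR-A K388R in 2 colours and a point for each of the 2 same-numbered array pairs; the line joins the pair. PAPSS2 and STS lie left of 0 in both lines, HSD17B1 lies far right of 0 in WT PR-A cells and around 0 in PR-A K388R cells, and CYP1B1 lies left of 0 by both pairs of all 4 probe sets in PR-A K388R cells and at or right of 0 in most pairs of WT PR-A cells.

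Counted over the list, with PAPSS2 left out of the responses because it set the rule, 5 of 17 probe sets were called in the WT PR-A response, 1 higher (HSD17B1) and 4 lower (STS). In the PR-A K388R response 4 of 17 were called, all lower: 3 of STS and 1 of CYP1B1. Over all 16376 probe sets 6.41% and 1.4% were called in these responses, and 7.87% and 1.66% of the 8904 genes when each is read by 1 probe set. Read by main probe set and without PAPSS2, 2 members were called in the WT PR-A response and 1 in the PR-A K388R response. In the difference of the responses 3 of 20 were called (HSD17B1 and CYP1B1, all lower), against 1.47% of probe sets. Read by main probe set, 1 of 9 members was called there (HSD17B1), against 1.88% of genes. The probe sets of 1 gene are not independent, so these counts rest on few genes. All members were chosen with earlier results of these data known. The counts of members here and below, set beside the shares over all probe sets, are therefore descriptions and not tests. The WT PR-A count fell to 3 without WT PR-A vehicle replicate 2. The PR-A K388R count was 0 without PR-A K388R R5020 replicate 1, 1 without its replicate 2 or either PR-A K388R vehicle array, 2 without any WT PR-A vehicle or T47D-Y array and 7 without either WT PR-A R5020 array. The difference count was 0 or 1 without any single array but WT PR-A R5020 replicate 1, where it stayed 3.

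Between the vehicle-treated lines 3 of 20 were called for WT PR-A against T47D-Y (HSD17B1 and CYP1A1 lower, 1 CYP1B1 probe set higher), against 7.28% of all probe sets and 8.51% of genes. For PR-A K388R against T47D-Y 3 of 20 were called, all lower (HSD17B1, CYP1A1 and SULT2B1), against 3.36% of probe sets and 3.83% of genes. For PR-A K388R against WT PR-A 4 of 20 were called with vehicle (HSD17B2 higher, 3 CYP1B1 lower), against 7.43% and 9.12%. With R5020 8 of 20 were called (3 STS higher, HSD17B1 and 4 CYP1B1 lower), against 8.91% and 10.8%. Read by main probe set, the members called were 2, 3, 2 and 3 of 9 in these 4 comparisons in the order above. The vehicle counts of probe sets fell most without certain single arrays. These were WT PR-A vehicle replicate 1 or T47D-Y replicate 1 for the first and T47D-Y replicate 2 for the second. For the third they were WT PR-A vehicle replicate 1 or 2 or PR-A K388R vehicle replicate 2. Without WT PR-A vehicle replicate 1 or PR-A K388R vehicle replicate 2 every call named for the third was lost. These comparisons share arrays with each other and with the responses, so they are not separate evidence. HSD17B1 and CYP1A1 were lower in both transfected lines than in T47D-Y, and the T47D-Y arrays are common to both comparisons.

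The other genes of these pathways were read from 5 lists of 123 genes in all, of which 57 were measured, by 1 probe set per gene. These lists too were chosen with earlier results of these data known, so their counts are descriptions and not tests. In the WT PR-A response 7 of 57 were called (6 higher, 1 lower), which is 12.3%, against 7.87% of all 8904 genes. In the PR-A K388R response 2 of 57 were called (both higher), which is 3.51%, against 1.66% of all genes. The lists had median log2 changes of -0.01 and 0.02, against -0.013 and 0.003 over all probe sets. The list of PAPS supply and cytosolic sulfotransferases, with 10 of 22 genes measured, held 0 called genes in either response by limma. At an unadjusted p under 0.05 there were 3 in the WT PR-A response and 2 in the mutant line's. Among them SULT1A1, a phenol sulfotransferase whose probe set may also read its near-identical relatives, had a log2 change of -0.43 in WT PR-A cells (adjusted p = 0.0412), below the 1.5-fold limit. The count of 7 of 57 over all 5 lists in the WT PR-A response fell without WT PR-A vehicle replicate 1.

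HSD11B2 moved most. It inactivates cortisol to cortisone, and its log2 signal was 8.91 and 9.07 in WT PR-A cells with R5020, against 4.35 and 5.10 with vehicle. In PR-A K388R cells it was 9.44 and 8.36 with R5020, against 5.33 and 5.29 with vehicle. The log2 changes were 4.26 (adjusted p = 5.34e-05) and 3.59 (adjusted p = 0.000742), and the difference of the responses did not pass (-0.67, adjusted p = 0.666). SRD5A1, the steroid 5-alpha-reductase that makes dihydrotestosterone, rose in WT PR-A cells (log2 change 1.45, adjusted p = 0.000699), with 0.56 in PR-A K388R cells (adjusted p = 0.226). AKR1C1, a ketosteroid reductase that inactivates progesterone, rose in WT PR-A cells (0.79, adjusted p = 0.00327), with 0.13 in PR-A K388R cells (adjusted p = 0.805). Its probe set may also hybridise to near-identical AKR1C genes, which was not tested. For neither SRD5A1 nor AKR1C1 was the difference of the responses called (adjusted p = 0.139 and 0.126). The AKR1C1 call was lost without WT PR-A vehicle replicate 1 (highest adjusted p over the settings 0.0626).

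**Figure D3:**
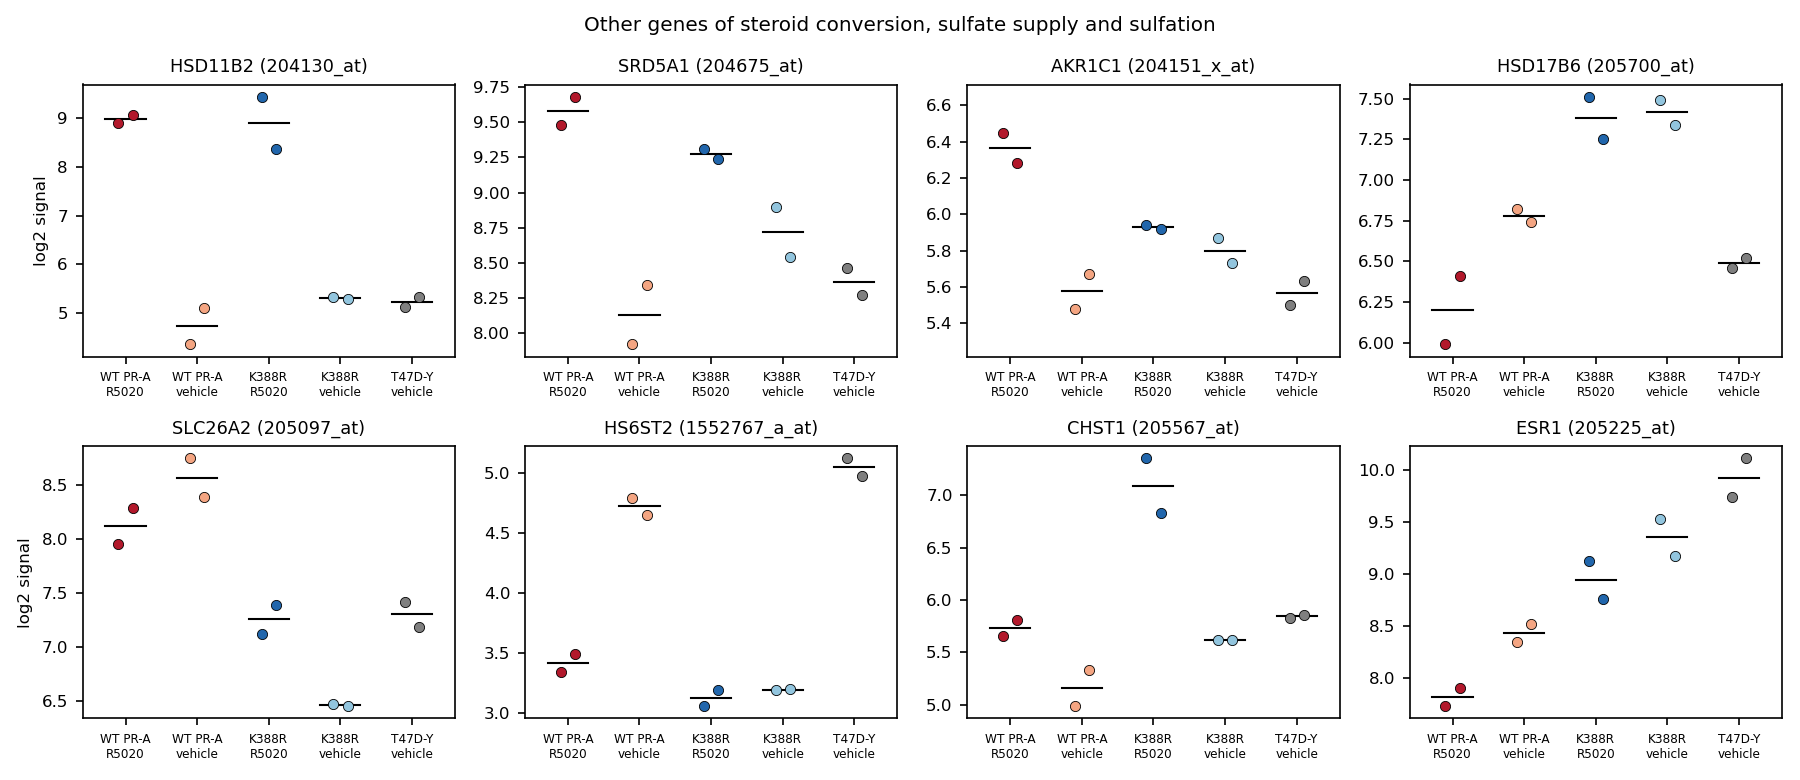
Log2 signal of 8 other genes on the 10 arrays, laid out as for the enzymes, with a point for each array and a bar at the mean of 2. HSD11B2 stands high on all 4 R5020 arrays, SLC26A2 is lowest in PR-A K388R cells with vehicle, and CHST1 is highest in PR-A K388R cells with R5020.

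Among the receptor and catechol estrogen genes, AHR, the aryl hydrocarbon receptor that drives CYP1 transcription, had log2 signals of 8.27 and 8.42 in WT PR-A cells with R5020, against 7.25 and 7.51 with vehicle. In PR-A K388R cells it had 7.73 and 7.66 with R5020, against 8.23 and 7.82 with vehicle, and in T47D-Y cells 8.81 and 8.88. It rose in WT PR-A cells (log2 change 0.97, adjusted p = 0.00347), with -0.33 in PR-A K388R cells (adjusted p = 0.485), and the responses differed (-1.30, adjusted p = 0.0243). Like CYP1A1 it was lower than in T47D-Y in both vehicle-treated lines (-1.46, adjusted p = 0.000306 in WT PR-A, and -0.82, adjusted p = 0.0188 in PR-A K388R), and unlike CYP1B1 it was higher in PR-A K388R than in WT PR-A with vehicle (0.65, adjusted p = 0.0251). The rise of AHR in WT PR-A cells lost its call without WT PR-A vehicle replicate 1 (highest adjusted p over the settings 0.0977). The difference of its responses lost its call without that array, either R5020 array of either line or PR-A K388R vehicle replicate 1 (highest 0.251). Against T47D-Y the WT PR-A call was kept throughout, whereas the PR-A K388R call was lost without its vehicle replicate 2 or either T47D-Y array (highest 0.174), and the call between the vehicle-treated PR-A lines without replicate 1 of either (highest 0.235). GSTP1, a glutathione transferase that conjugates quinones, rose in WT PR-A cells (1.30, adjusted p = 0.00043), with 0.32 in PR-A K388R cells (adjusted p = 0.473). The difference of its responses did not pass (-0.98, adjusted p = 0.0533). ESR1, the estrogen receptor, had a log2 difference of -1.50 in WT PR-A cells with vehicle against T47D-Y (adjusted p = 0.000728). PR-A K388R exceeded WT PR-A cells in ESR1 with vehicle (0.92, adjusted p = 0.0111) and with R5020 (1.13, adjusted p = 0.00301). The vehicle call of ESR1 was lost without replicate 1 of either line (highest adjusted p over the settings 0.146).

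**Figure D4:**
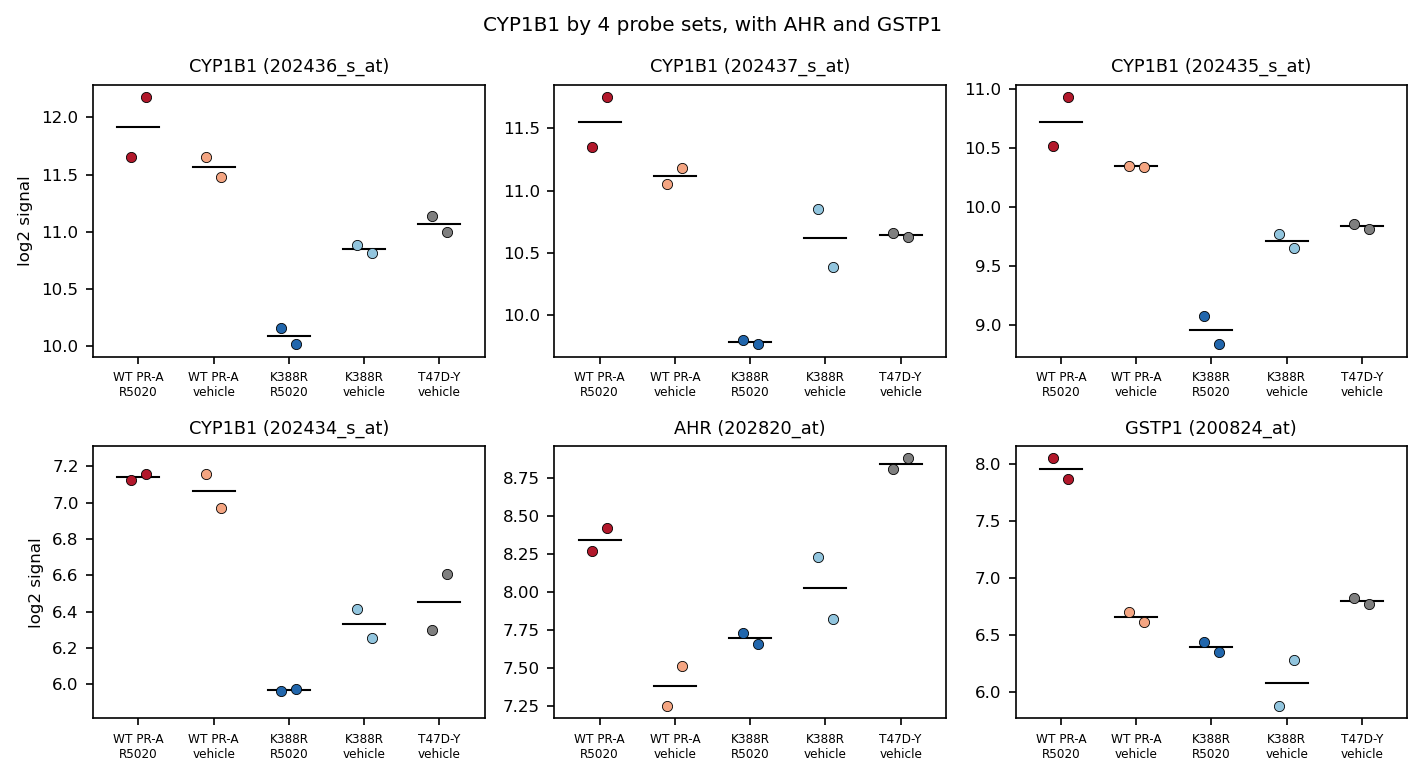
Log2 signal of CYP1B1 by its 4 probe sets, and of AHR and GSTP1, on the 10 arrays, with a point for each array and a bar at the mean of 2. The CYP1B1 panels share their shape, lowest in PR-A K388R cells with R5020, while AHR is highest in T47D-Y cells.

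The transferases that use PAPS in the Golgi moved singly. HS6ST2, which sulfates heparan sulfate, fell in WT PR-A cells (log2 change -1.30, adjusted p = 0.000161), to 3.34 and 3.49 with R5020. These values lay near those arrays' lower quartiles of 3.32 and 3.28, so the size of the fall is uncertain. Its log2 change was -0.07 in PR-A K388R cells, whose 4 arrays were all between 3.06 and 3.20. They lay below the lower quartiles of 3.34 to 3.39 of their arrays. The difference of the HS6ST2 responses was called (1.23, adjusted p = 0.0104), but with the PR-A K388R level at the dim end of the arrays, where a fall could not be read. This call was lost without WT PR-A vehicle replicate 1 or PR-A K388R R5020 replicate 2 (highest adjusted p over the settings 0.16). HS3ST3B1, another heparan sulfate enzyme, rose in WT PR-A cells (1.08, adjusted p = 0.0284), with -0.02 in the mutant line (adjusted p = 0.989). CHST1, a keratan sulfate enzyme, rose in PR-A K388R cells (1.47, adjusted p = 0.0044), with 0.58 in the WT PR-A line (adjusted p = 0.0865). The difference of the responses was called for neither (HS3ST3B1 -1.11, adjusted p = 0.226; CHST1 0.89, adjusted p = 0.143). SLC26A2, a sulfate transporter that feeds PAPS synthesis, had log2 signals of 6.47 and 6.45 in PR-A K388R cells with vehicle, against 8.75 and 8.39 in WT PR-A cells with vehicle (log2 difference -2.11, adjusted p = 7.99e-05). T47D-Y cells lay between, at 7.42 and 7.18. Against them vehicle-treated WT PR-A cells were higher (1.27, adjusted p = 0.00133) and vehicle-treated PR-A K388R cells lower (-0.84, adjusted p = 0.0272). The latter call was lost without any 1 of the arrays compared. The responses of SLC26A2 to R5020 differed (1.24, adjusted p = 0.0445), 0.79 in PR-A K388R cells and -0.45 in WT PR-A cells, neither called. The difference for SLC26A2 held without WT PR-A R5020 replicate 2 and was lost without any other array and with median centring (highest adjusted p over the settings 0.308). The HS3ST3B1 call was lost without either WT PR-A vehicle array or WT PR-A R5020 replicate 2 (highest 0.267).

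For WT PR-A against T47D-Y 6 of the 57 list genes were called (2 higher, 4 lower), or 10.5%, against 8.51% of all genes. When the PR-A K388R line was set against T47D-Y it was 6 of 57 (1 higher, 5 lower), or 10.5%, against 3.83%. Between the PR-A lines (PR-A K388R over WT PR-A) 8 of 57 were called with vehicle (3 higher, 5 lower), or 14%, against 9.12%, and 9 of 57 with R5020 (2 higher, 7 lower), or 15.8%, against 10.8%. Lower in PR-A K388R than WT PR-A cells with vehicle were GALNS (-1.01, adjusted p = 0.000745) and SGSH (-0.80, adjusted p = 0.00317), lysosomal sulfatases, TPST2 (-0.70, adjusted p = 0.00986), a protein-tyrosine sulfotransferase, and HS6ST2 (-1.52, adjusted p = 6.48e-05). Higher there were CHST15 (0.82, adjusted p = 0.0136) and HSD17B6 (0.64, adjusted p = 0.0289). The size of the HS6ST2 difference is uncertain, since its PR-A K388R arrays lay below their lower quartiles. Of these calls, those of GALNS, SGSH and HS6ST2 held without any single array, those of CHST15, HSD17B6 and TPST2 did not (highest adjusted p over the settings 0.148, 0.175 and 0.115). CHST15 was lost without WT PR-A vehicle replicate 1 or 2 or PR-A K388R vehicle replicate 1, HSD17B6 without any of the 4 arrays, and TPST2 without any of the 4 but WT PR-A vehicle replicate 2. The lists' count against T47D-Y in PR-A K388R cells was 1 without either T47D-Y array and 2 without either PR-A K388R vehicle array. The vehicle count between the PR-A lines was 4 without replicate 1 of either. In the difference of the responses 3 of 57 were called (2 higher, 1 lower), or 5.26%, against 1.88% of all genes. The count of 3 includes HS6ST2, for which a fall in PR-A K388R cells could not be read. That count was 0 without WT PR-A vehicle replicate 1 and 1 without either PR-A K388R R5020 array.

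Over the 10 arrays the genes whose level ran most like PAPSS2 (Pearson's r with 203060_s_at, 1 probe set for each of 8903 other genes) were LYRM9 (0.966), TNFAIP1 (0.961), SLC11A2 (0.956), XG (0.955) and GLB1L (0.952). LYRM9 was 5.29 and 5.32 in WT PR-A cells with R5020, against 6.11 and 6.11 with vehicle. STS came at rank 57 of these genes (0.894), and the other members of the list lay between -0.686 (CYP19A1) and 0.307 (SULT2B1). The arrays fall into groups, so this likeness largely follows the group levels; with Spearman's rho LYRM9 was the 1 gene of these 5 still among the top 5.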

How the data were processed

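Log2 signals were deposited by the authors as 1 table of 16376 probe sets on 10 arrays, normalized in Partek Genomics Suite per the methods; the normalization method and the choice of probe sets are not given in the sources used here. Probe sets were named through the platform annotation: 12547 have 1 symbol, 457 several and 3372 are not listed; 12528 matched a GRCh38.p14 gene. No depth exists for arrays, so their number limits the precision. In the deposited log2 values the replicate 2 minus replicate 1 differences sum to 0 over the 5 groups (largest absolute sum 0.0003; median 0.228 to 0.255 with 1 group's numbers exchanged), so the replicate number had been removed and only 4 residual degrees of freedom are independent.

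One limma fit (version 3.58.1, under R 4.3.3) held all 10 arrays, with a mean for each group, the replicate number as a block and moderated variances (5.62 prior degrees of freedom). The Benjamini-Hochberg adjustment ran over the whole table, and a call needed an adjusted p under 0.05 together with a change of 1.5-fold or more. A gene's main probe set is that with the highest mean. Intervals are at 95%. The members and lists were chosen with earlier results of these data known. Named were every member, list genes called in a response or in the difference of the responses (up to 6 per list), up to 3 per list for other comparisons, ESR1 and AHR, and the 5 genes most like PAPSS2. The fit was run on simulated data with the same spread in all groups for each probe set, so that run cannot speak for groups of unequal spread. Alternatives were no block, unmoderated contrasts, an intensity trend, quantile normalization, median centring, a change of 2-fold or more, omission of the dimmest 40% of probe sets, the compared groups alone, the probe set with the largest variance, and leaving out each array. Figures were drawn with Python 3.11.15.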

Additional observations from a re-analysis of the deposited data

Results flagged for a closer look

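In 6 cases the difference of the R5020 responses was called (PR-A K388R response minus WT PR-A response, limma with the replicate block). These were 3 of 20 member probe sets, against 1.47% of all probe sets, and 3 of 57 list genes, against 1.88% of all genes. Each of the 6 calls was lost with unmoderated contrasts and without some single arrays, as given above. Among the listed enzymes these were HSD17B1 (-1.92, adjusted p = 0.0431) and CYP1B1 by 202437_s_at (-1.27, adjusted p = 0.0431) and 202435_s_at (-1.13, adjusted p = 0.0395). Among the other pathway genes they were HS6ST2 (1.23, adjusted p = 0.0104), AHR (-1.30, adjusted p = 0.0243) and SLC26A2 (1.24, adjusted p = 0.0445). For HS6ST2 all 4 PR-A K388R arrays (3.06 to 3.20) lay below their arrays' lower quartiles, so no fall could show in that line and its value does not bear on whether the responses differ. No group had enough arrays for a search for single outlying arrays.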

How the results depend on the processing

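Every fit assumes that the 2 arrays of a group vary as those of the other groups do, and without the replicate block (5 residual and 4.35 prior degrees of freedom) p-values are too small. Without the block the difference of the responses held 6 called member probe sets and 5 list genes, against 3 and 3, and no other count moved by more than 1.5 times. With an intensity trend the difference count was 5. Unmoderated contrasts gave 2 members and 2 list genes in the WT PR-A response, 0 and 0 in the PR-A K388R response, 0 and 0 for the difference, 1 and 2 for WT PR-A against T47D-Y, 0 and 1 for the PR-A K388R line against T47D-Y, 0 and 3 for PR-A K388R against WT PR-A with vehicle, and 3 list genes with R5020. A fold of at least 2 left 0 members in the PR-A K388R response, 1 list gene for PR-A K388R against T47D-Y, 1 member and 3 list genes for PR-A K388R against WT PR-A with vehicle, and 5 list genes with R5020. Fitted on the compared groups alone, the PR-A K388R response held 7 members, the difference 0, and the comparison of PR-A K388R with T47D-Y held 3 list genes. Leaving out single arrays gave ranges of members and list genes of 3 to 7 and 4 to 7 (WT PR-A response), 0 to 7 and 2 to 3 (PR-A K388R response), 0 to 3 and 0 to 2 (difference), 1 to 3 and 4 to 6 (WT PR-A against T47D-Y), 1 to 4 and 1 to 6 (PR-A K388R against T47D-Y), 1 to 5 and 4 to 8 (PR-A K388R against WT PR-A, vehicle), and 7 to 10 and 6 to 9 (R5020). The value of STS 203770_s_at for PR-A K388R R5020 against WT PR-A R5020 turned to -0.18 without WT PR-A R5020 replicate 1 and was 0.61 without its replicate 2; the cause was not tested. Of single values that passed the threshold in some setting, this was the 1 that changed sign; of 144 that never passed, 56 changed sign in some setting.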
